A study of Mus musculus with 8 samples.

Results

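The HoxC cluster is a row of homeobox genes on mouse chromosome 15, and 9 of its genes, Hoxc4, Hoxc5, Hoxc6, Hoxc8, Hoxc9, Hoxc10, Hoxc11, Hoxc12 and Hoxc13, were looked for on the array by matching each probe's transcript identifier to a RefSeq gene table. Of these 9 genes, 6 were found, with 7 of the 41174 noncontrol probes: Hoxc10 had 2 probes, and Hoxc5, Hoxc8, Hoxc9, Hoxc12 and Hoxc13 had 1 each. No probe matched Hoxc4, Hoxc6 or Hoxc11, so these genes were not analysed here. RNA from mouse incisor dental epithelium was measured on single-colour arrays, 1 array per sample, in 4 wild-type (WT) samples and 4 samples of genotype Bmi1-/- (Bmi1 null, whose arrays are called null arrays here), all of mixed genetic background. The epithelium had been separated mechanically from the mesenchyme after whole incisors were digested with accumax. The age and sex of the mice, the allele behind the null genotype, and whether each sample was 1 animal or a pool are not stated by the labels, so p-values measure the spread among these samples, which may be technical.

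Hox genes encode transcription factors that give cells their position along the head-to-tail axis. Within a cluster, genes at the low-numbered end are expressed further forward in the embryo and genes at the high-numbered end further back, while the first pharyngeal arch, from which the jaws form, develops without Hox expression. Bmi1 is a subunit of Polycomb repressive complex 1, which holds Hox clusters silent in cells where they are not used, and mice without Bmi1 are known for shifts in the identity of their vertebrae.

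Hoxc5, Hoxc9 and Hoxc13 were detected on null arrays and on no WT array, where detected means well above background. A weaker flag marks signal as positive and significant. It was set for Hoxc13 on WT arrays 1 to 4 and for Hoxc5 on WT arrays 2 and 3. Set against the mean detection limit of the WT arrays, Hoxc9 was at least 135-fold and Hoxc5 at least 6.44-fold higher. Both passed the test over all genes, as did 0.0403% of the 22345 genes tested in the same direction, and the call of Hoxc5 was lost in 7 of 24 other settings. Both entered that test only through their null arrays, so that a difference in detection was built in. Both were well above background on 4 of 4 null arrays and on 0 of 4 WT arrays. Hoxc13 was well above background on 3 of 4 null arrays and on 0 of 4 WT arrays, but was too dim to enter the main test. Detection on 3 or 4 null arrays and on no WT array was seen for 18 of all 41174 probes, or 0.0437%. In bulk RNA, fewer cells that express a gene and less RNA per cell cannot be told apart. The remaining genes, Hoxc8, Hoxc10 and Hoxc12, were detected on none of the null arrays. Among HoxC genes with a matched probe, those detected on null arrays were not next to each other. Hoxc8 lies between Hoxc5 and Hoxc9, and Hoxc10 and Hoxc12 lie between Hoxc9 and Hoxc13. Probes without a matched gene have no place in this order.

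**Figure D1:**
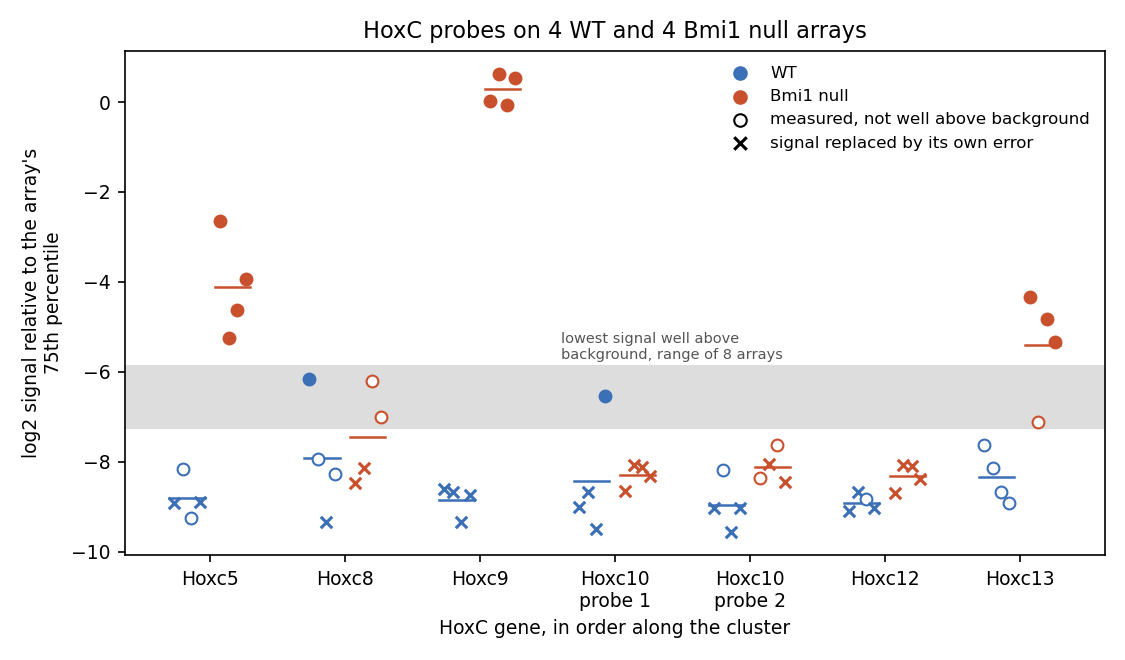
Scaled log2 signal, with 0 at each array's 75th percentile (vertical axis), of the 7 HoxC probes in cluster order (horizontal axis) on 4 WT (blue) and 4 Bmi1 null (orange) arrays, with bars for group means. Filled points were well above background, open points were measured below that level, crosses are signals that had been replaced by their own error, and the grey band is the span of the 8 detection limits, each the lowest signal on an array that was well above background (-7.25 to -5.87). Hoxc9 and Hoxc5 stand above the band on all 4 null arrays, and Hoxc13 on 3.

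Hoxc9 is a gene of the trunk that in mouse embryos patterns the thoracic skeleton and the motor neurons of the thoracic spinal cord. Its processed signal, a background-corrected intensity before any scaling between arrays, was 3.06, 1.51, 2.96 and 2.32 on WT arrays 1 to 4 and 731, 703, 423 and 1154 on null arrays 1 to 4. Every null array was above every WT array, and after scaling the same separation held for 9.28% of all probes. In the uncorrected median brightness of the spot, the same probe read 28 to 31 on the WT arrays and 395 to 1034 on the null arrays. After scaling, as log2 minus that of the array's 75th percentile, the mean was -8.84 ± 0.33 on WT arrays against 0.28 ± 0.35 on null arrays (SD, n = 4 per genotype), and the lowest null array stood 8.55 above the highest WT array. The difference was 9.12 ± 0.30 (SE, limma adjusted p = 3.62e-07). The log2 values deposited by the authors, which follow the uncorrected spot signal, put Hoxc9 at 4.86 ± 0.08 on WT arrays against 9.83 ± 0.34 on null arrays (SD, n = 4 per genotype).

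The size of that difference, its SE and its p-value depend on values that stand in for a measurement. On all 4 WT arrays the background-subtracted signal of Hoxc9 was negative, between -4.46 and -0.17, and the scanner software had put the error of the signal in its place. The WT SD of Hoxc9 is therefore the spread of these errors after scaling, not of WT RNA levels. Over all 8 arrays this substitution, taken as equality within 1%, held for 99.7% to 100% of the spots not significantly above background. It touched 28 of the 56 HoxC values, 16 of the 28 in WT and 12 of the 28 in Bmi1 null samples. A fold written as "at least" avoids it: the null mean is set against the detection limits of the WT arrays, which were higher than each substituted value. Such a fold still depends on the scaling between arrays. When every value under the highest of the 8 detection limits was raised to it, a common floor, the log2 difference of Hoxc9 was 6.15 ± 0.23 (SE, limma adjusted p = 2.68e-05).

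Hoxc5 belongs to the forward part of the cluster, which is active in the neck and anterior trunk of the mouse embryo. Its processed signal was 2.48, 2.15, 3.12 and 2.09 on WT arrays 1 to 4 and 116, 11.9, 17.8 and 52.2 on null arrays 1 to 4. The genotypes did not overlap, which after scaling held with Bmi1 null higher for 9.28% of all probes. Null arrays 2 and 3 were nearest to their detection limits, which were 7.68 and 7.51. Relative to the 75th percentile the mean was -8.80 ± 0.46 on WT arrays against -4.11 ± 1.12 on null arrays (SD, n = 4 per genotype), a difference of 4.69 ± 0.54 (SE, limma adjusted p = 0.00932). The substitution had been made on 2 WT arrays and on no null array, so the WT SD, the SE and the p-value rest in part on stand-in values.

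The call of Hoxc5 was less stable than that of Hoxc9. With the common floor its difference was 1.76 ± 0.48 (SE, limma adjusted p = 0.782), with normexp background correction 1.58 ± 0.30 (SE, limma adjusted p = 0.242), and in the authors' deposited values 1.45 ± 0.30 (SE, limma adjusted p = 0.362). It was positive without each of the 8 arrays, and the adjusted p from limma was 0.060, 0.0516 and 0.0702 with WT array 3, WT array 4 or null array 4 left out.

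Hoxc13 lies at the far end of the cluster and is needed for hair and nails in the mouse. Its processed signal was 6.04, 2.19, 4.69 and 2.06 on WT arrays 1 to 4 and 35.7, 3.28, 15.6 and 19.7 on null arrays 1 to 4. Before scaling the groups overlapped, because Bmi1 null replicate 2 was below WT replicates 1 and 3. No value of this probe had been substituted. After scaling, the mean was -8.34 ± 0.57 on WT arrays against -5.40 ± 1.21 on null arrays (SD, n = 4 per genotype), the groups were 0.51 apart, and the 3 detected null arrays stood at -4.34, -4.82 and -5.34. Groups apart after scaling, with Bmi1 null higher, were also seen for 3129 of the 8950 probes above background on no array. In a fit of every probe with no filter on dim signals, the difference was 2.93 ± 0.57 (SE, limma adjusted p = 0.183), which did not pass. With 1 probe chosen per gene and no filter, the adjusted p was 0.157 by limma.

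Hoxc8, a gene of the thoracic region in the mouse embryo, was well above background on a single array, WT array 1. Its processed signal was 16.7, 2.52, 2.95 and 3.22 on WT arrays 1 to 4 and 2.03, 1.61, 5.96 and 6.25 on null arrays 1 to 4. The groups overlapped, and the scaled difference was 0.47 ± 0.68 (SE, limma adjusted p = 0.793, no filter). The difference was -1.09 on slide 1 and 2.03 on slide 2. For WT array 1 the number in the title is not the one in the file name, which leaves its WT sample uncertain, and without it the difference of Hoxc8 was 1.06.

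Hoxc10, which takes part in patterning lumbar motor neurons in the mouse, was measured by 2 probes. One was above background on WT replicate 4 only, at a processed signal of 10.7, and read 1.51 to 2.62 on the other WT arrays and 1.59 to 2.52 on the null arrays. The other probe read 1.90 to 2.5 in WT and 1.72 to 2.29 in Bmi1 null samples and was above background on no array, WT replicate 4 included. The probes therefore did not share the single detection. Their scaled differences were 0.14 ± 0.54 and 0.84 ± 0.33 (SE, limma adjusted p = 0.932 and 0.209, no filter).

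Hoxc12, which lies beside Hoxc13, was above background on no array. Its processed signal was 1.51 to 4.17 in WT and 1.60 to 2.38 in Bmi1 null samples, and 7 of its 8 values had been substituted. The scaled difference was 0.59 ± 0.24 (SE, limma adjusted p = 0.234, no filter), and it was -0.31 when arrays were not scaled and -0.08 under quantile normalization. For these dim genes an absence of RNA and a level under the limit of detection cannot be told apart.

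**Figure D2:**
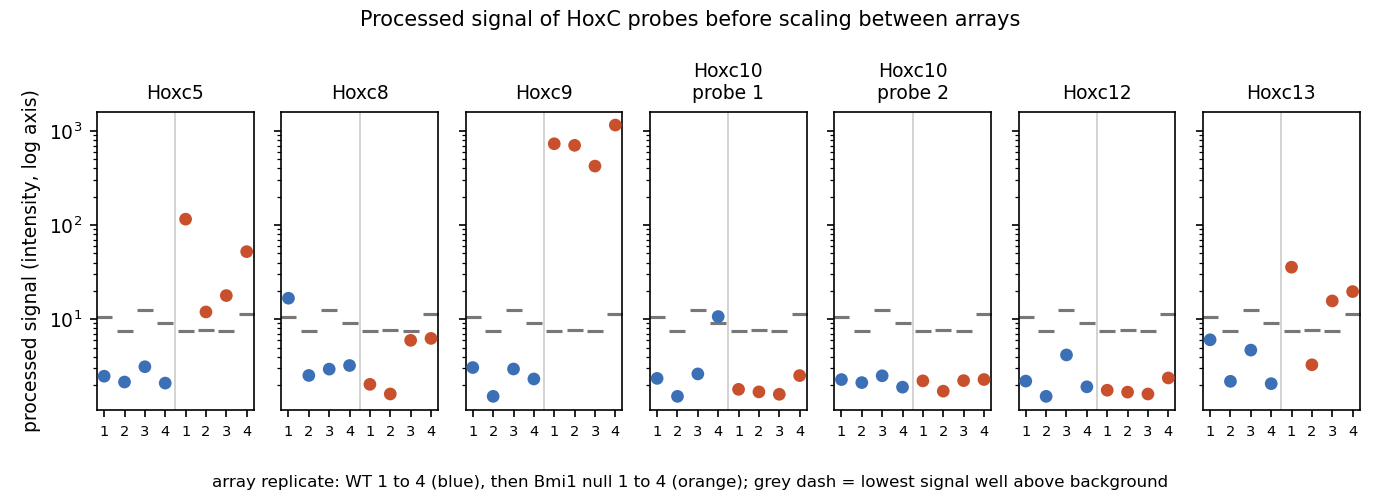
Processed signal (intensity, log axis) of each HoxC probe on WT replicates 1 to 4 (blue) and Bmi1 null replicates 1 to 4 (orange), before scaling between arrays; grey dashes mark the lowest well-above-background signal of each array. The Hoxc9 points of null arrays lie between 423 and 1154, and Hoxc8 and Hoxc10 each have 1 WT point above the dash.

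Dim probes as a whole shifted between genotypes, and the small positive differences of Hoxc8, Hoxc10 and Hoxc12 have to be read against that shift. The 8950 probes that were above background on no array had a median difference of 0.73 (Bmi1 null minus WT, scaled log2), with a 5th to 95th percentile range of -0.09 to 1.07, and -0.17 before scaling. The differences of Hoxc8, of Hoxc12 and of both Hoxc10 probes lay inside that range. Scaling also raised the larger differences: for Hoxc9, Hoxc5 and Hoxc13 they were 8.22, 3.79 and 2.03 when arrays were not scaled. The 75th percentile of the signal was 617 to 1900 on WT arrays and 440.3 to 795 on null arrays (exact permutation p = 0.0857, two-sided). Between 69.6% and 74.4% of probes were well above background on WT arrays and 64.2% to 68.0% on null arrays (exact permutation p = 0.0286, two-sided, the smallest that 4 against 4 arrays can give), so fewer probes were detected on null arrays. The scaled detection limit was -6.80 ± 0.37 on WT arrays against -6.12 ± 0.34 on null arrays (SD, n = 4 per genotype, exact permutation p = 0.0571, two-sided). No spot was saturated. The 8 arrays came from 2 slides, which were also the 2 scans, each with 2 arrays of each genotype.

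Counted over all 7 probes with no filter, 7 had a positive difference, with a median of 0.84. Of all 41174 probes 59.5% were positive, with a median of 0.10, and of the probes above background on no array 93.1% were. The groups did not overlap, with Bmi1 null higher, for the probes of Hoxc5, Hoxc9 and Hoxc13, or 3 of 7. The same separation held for 9.28% of all probes, and for 3129 of the 8950 probes above background on no array. With no filter limma called Hoxc5 and Hoxc9 higher at a 5% false discovery rate (FDR), where 0.0267% of all probes were called higher.

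In the fit of tested genes, 2 of the 6 HoxC genes entered, Hoxc5 and Hoxc9, and both rose. The entry rule asked for 4 of 8 arrays well above background, in whichever genotype, so both entered only through their 4 null arrays and had to differ in detection. In both the groups did not overlap, which held with Bmi1 null higher for 1.82% of genes with all 8 values. The difference had the same sign on each slide: the scaled difference was 9.0 and 9.24 for Hoxc9 and 4.95 and 4.43 for Hoxc5 on slides 1 and 2. With the slide as a block, limma's adjusted p was 1.65e-06 for Hoxc9 and 0.0217 for Hoxc5. On slide 1 alone Hoxc5 was not called (limma adjusted p = 0.751).

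Bmi1 itself, the check of the labels, had a scaled level of 1.22 ± 0.05 on WT arrays against -1.60 ± 0.88 on null arrays (SD, n = 4 per genotype, limma adjusted p = 0.0305), and the labels do not say where its probes lie relative to the deleted part. A second Bmi1 probe had -1.73 ± 0.32 on WT arrays against -6.32 ± 1.75 on null arrays (SD, n = 4 per genotype) and was well above background on 2 null arrays, and its difference of -4.60 did not pass with no filter (limma adjusted p = 0.121). The null arrays differed among themselves. Their Bmi1 levels by the first probe were -2.92, -1.22, -1.23 and -1.04 in replicates 1 to 4, so that replicate 1 was lowest.

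The HoxC genes differed in how even their levels were over the 4 null arrays. Hoxc9 stood at 0.02, 0.63, -0.06 and 0.54 in Bmi1 null replicates 1 to 4, a 1.61-fold range. Hoxc5 stood at -2.65, -5.25, -4.63 and -3.93, a 6.09-fold range, and Hoxc13 at -4.34, -7.12, -4.82 and -5.34, a 6.85-fold range. Replicate 1, with the lowest Bmi1, was highest for Hoxc5 and Hoxc13 but only above replicate 3 for Hoxc9, and replicate 2 was lowest for Hoxc5 and Hoxc13 but highest for Hoxc9. With 4 arrays no correlation was computed, and whether the residual Bmi1 signal has a part in this order was not tested.

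**Figure D3:**
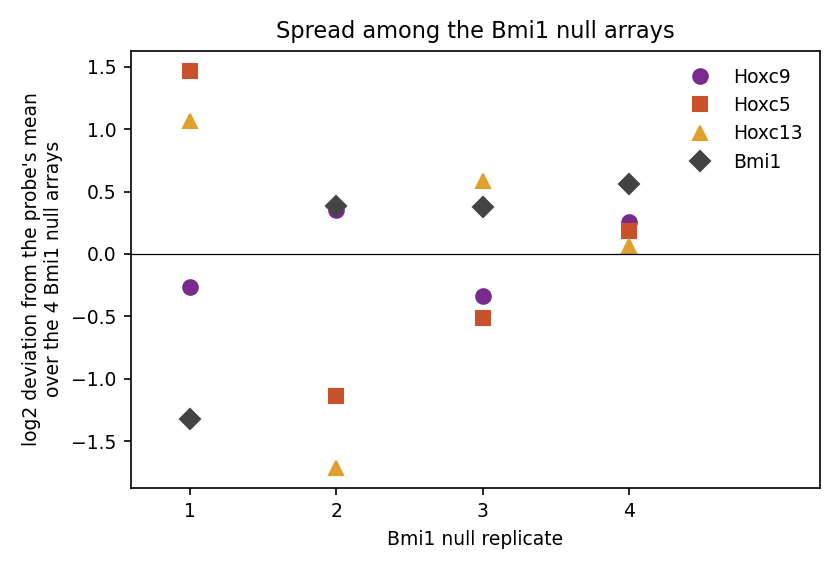
Deviation of each Bmi1 null replicate (horizontal axis) from the probe's mean over the 4 null arrays (vertical axis, log2) for Hoxc9, Hoxc5, Hoxc13 and the first Bmi1 probe. Hoxc9 stays within -0.34 to 0.35, while Hoxc5 runs from -1.14 to 1.47 and Hoxc13 from -1.71 to 1.06.

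Genes on either side of the cluster were measured in the same fit, to see whether the difference ran past its ends. Reference order was taken from the RefSeq table, and the 5 nearest tested genes on each side were used. Beyond Hoxc13 these were Calcoco1, Atp5g2, Npff, Tarbp2 and Map3k12, with log2 differences from 0.06 to 0.38 and adjusted p from limma of at least 0.794. Beyond Hoxc4 they were Smug1, Cbx5, Hnrnpa1, Nfe2 and Copz1, with differences from -0.01 to 0.21 and adjusted p of at least 0.843. None of the 10 passed, none did so at an unadjusted p under 0.05, and Cbx5, which encodes heterochromatin protein HP1 alpha, had -0.01 ± 0.24 (SE). Calcoco1, a coactivator and autophagy receptor gene and the nearest tested gene beyond Hoxc13, had 0.13 ± 0.35, and Smug1, a DNA repair glycosylase gene and the nearest beyond Hoxc4, had 0.13 ± 0.18 (SE). Within the cluster no probe matched the noncoding genes Hotair, Mir196a-2 and Mir615.

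**Figure D4:**
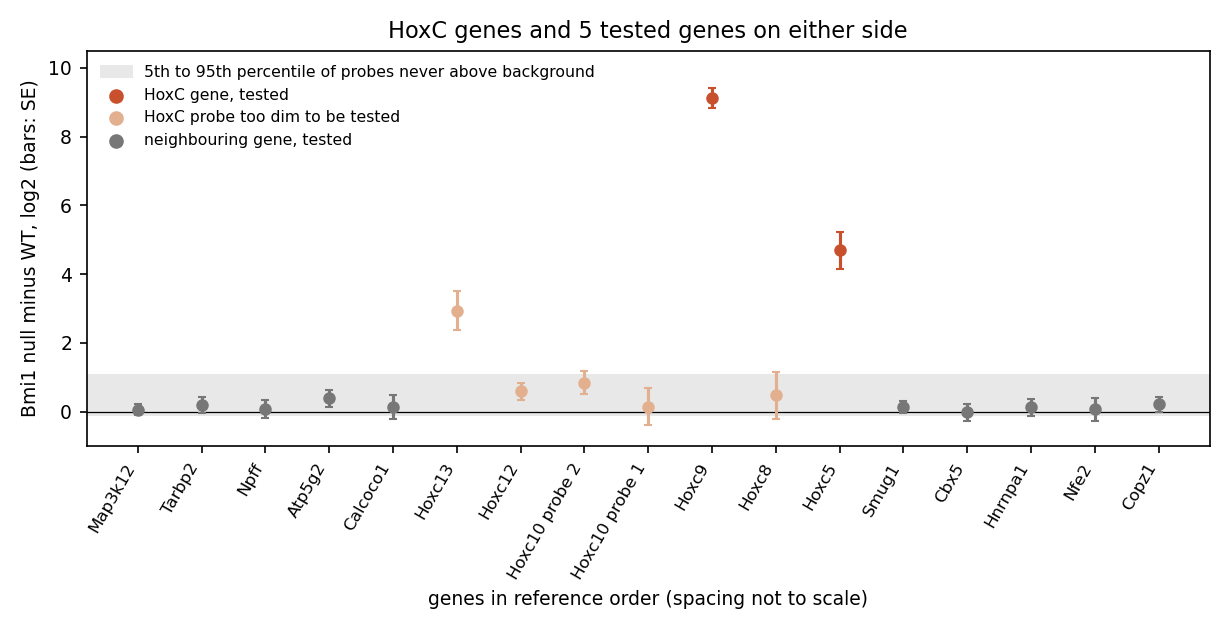
Difference between Bmi1 null and WT means (vertical axis, scaled log2, bars are SE from limma) for HoxC probes and the 5 nearest tested genes on each side, in reference order with even spacing (horizontal axis). The grey band is the 5th to 95th percentile of probes above background on no array (-0.09 to 1.07), and the SE of dim probes comes from the fit with no filter; Hoxc9, Hoxc5 and Hoxc13 lie above the band and all 10 neighbours lie between -0.01 and 0.38.

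Set beside the other Hox clusters, HoxC and HoxB each had 3 genes that were above background on null arrays only, out of 6 and 10 genes on the array, while HoxA had 0 of 11 and HoxD 0 of 9. Above background on WT arrays only were 2 HoxC, 2 HoxA, 0 HoxB and 0 HoxD genes. For these counts 1 array was enough, and the share of all genes that meet this rule was not computed. Called higher by limma were 2 HoxC, 3 HoxB, 1 HoxA and 0 HoxD genes (0 HoxD genes at unadjusted p under 0.05), out of 2, 5, 3 and 2 tested, beside 0.0403% of all genes tested. Both HoxC genes and 2 of the HoxB genes, Hoxb5 and Hoxb7, entered the test only through their 4 null arrays. Hoxb6 and Hoxa9, the other genes called, were each above background on 1 WT array and 4 null arrays. They also could not have entered without null arrays, so that a difference in detection was built into these counts. Differences between the clusters were not tested.

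**Figure D5:**
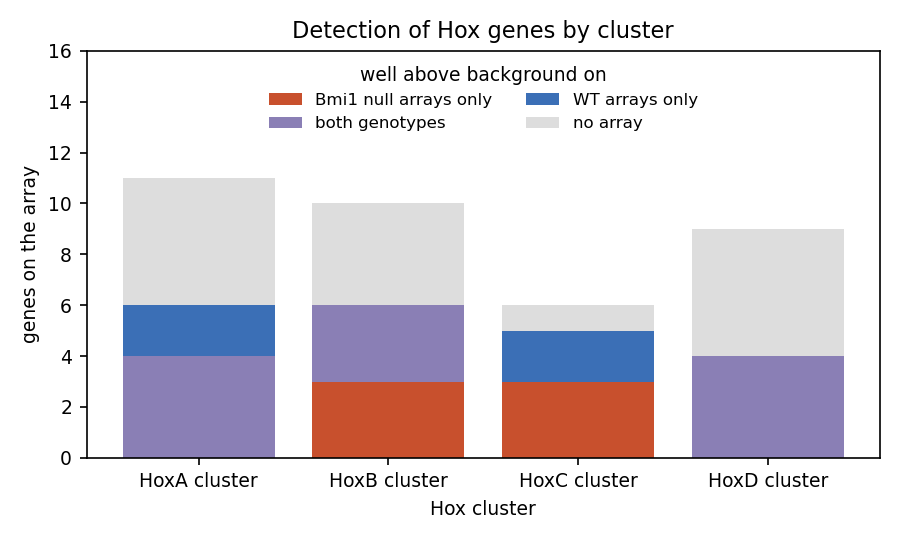
Number of genes on the array (vertical axis) in each Hox cluster (horizontal axis), coloured by the genotypes whose arrays were well above background. HoxC holds 3 genes seen on null arrays only, 2 seen on WT arrays only and 1 seen on no array.

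Paralogues, the genes with the same number in other clusters, gave values of their own. In group 9, Hoxa9 rose by 3.69 ± 0.39 (log2, SE, limma adjusted p = 0.00702). It was above background on 1 WT array and 4 null arrays, and its WT mean of -7.13 was under the mean WT detection limit of -6.80. The tested Hoxb9 probe had 1.01 with a WT SD of 3.6 (limma adjusted p = 0.886). The other Hoxb9 probe, detected on 1 null array, had 2.98 (limma adjusted p = 0.00642, no filter). Neither Hoxd9 probe entered the main test, and with no filter they had -0.62 and 1.39 (limma adjusted p = 0.789 and 0.183), the first detected on 1 WT array and the other on 1 null array. In group 5, Hoxb5, above background on 4 null arrays and no WT array, rose by 3.57 ± 0.39 (log2, SE, limma adjusted p = 0.00753). Hoxa5 was above background on no array. In group 8, Hoxd8 was above background on all 8 arrays with a difference of 0.13 (limma adjusted p = 0.947), and Hoxb8 on none. In group 13, no probe of Hoxa13, Hoxb13 or Hoxd13 was above background on any null array, and 1 Hoxa13 probe was on 2 WT arrays, with a difference of -0.13 (limma adjusted p = 0.951, no filter). In group 10, Hoxa10 was above background on no array, and Hoxd10 was on 2 WT arrays and 1 null array, with a difference of 0.47 (limma adjusted p = 0.612, no filter).

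The genes whose values over the 8 arrays were most like those of Hoxc9, other HoxC genes left out, were named by Pearson correlation as a description. Among tested genes with a symbol they were Hoxb7 (r = 0.980), Hoxb6 (0.979), Hoxb5 (0.977), Ankrd22 (0.969) and Chchd7 (0.968), and Hoxc5 had 0.949. The 8 points of each fall into the 2 genotypes, so that r measures mainly the difference between genotypes. Ankrd22 and Chchd7 had log2 differences of 0.88 and 0.95 and did not pass (limma adjusted p = 0.678 and 0.0897).

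Genes that work with Hox proteins or set their expression were looked at as lists. Of 9 TALE homeobox cofactors, the Pbx, Meis and Pknox genes, all 9 were tested, 7 had a positive difference, the median was 0.08 against 0.01 for all genes tested, and none passed (limma, 1 higher at unadjusted p under 0.05). That one was Meis2, at -4.94 ± 1.07 on WT arrays against -2.82 ± 0.98 on null arrays (SD, n = 4 per genotype, limma adjusted p = 0.681), and Meis1 had a difference of 0.67. Of 11 trithorax and H3K27 demethylase genes, which oppose Polycomb, 9 were tested, with 8 positive differences, a median of 0.10 and none that passed (limma, 0 at unadjusted p under 0.05). Kmt2b had 0.42 and the demethylase gene Kdm6b 0.47. Of 14 genes in a list of Foxn1, a target of Hoxc13 in mouse skin, and hair keratins, 8 were on the array and 3 were tested, and none passed (limma, 1 higher at unadjusted p under 0.05). Krt35 had 1.1 ± 0.31, Krt84 0.51 and Krt82 -0.40 (log2, SE, limma adjusted p = 0.681, 0.798 and 0.824).

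Markers of the tissue and of other cell types were summed per array, in multiples of the array's 75th percentile. All 10 dental epithelial markers were tested, and all 10 had a positive difference (median 0.70, 8 higher at unadjusted p under 0.05, none called by limma). Over all 22345 genes tested, 11494 had a positive difference and 940 were higher at unadjusted p under 0.05. The summed level of the dental epithelial markers was 335 to 495 in WT and 609 to 966 in Bmi1 null samples, and the log2 differences of the enamel matrix genes Ambn and Amelx were 0.95 and 0.94. The 12 mesenchymal markers, also all tested, summed to 343 to 495 and 360 to 698, with 7 positive and 5 negative differences, and log2 differences of 0.98 for Col1a1 and -0.93 for Postn. Immune markers, 7 of 8 tested, summed to 2.57 to 5.89 in WT and 2.08 to 2.92 in Bmi1 null samples, with 6 negative differences, and the B cell gene Ms4a1 fell (log2 difference -3.58, limma adjusted p = 0.00702). Endothelial markers had 5 of 5 negative differences, with sums of 12.2 to 20.6 and 8.21 to 15.9. Skin and hair follicle markers summed to 2.03 to 2.62 and 1.99 to 3.89, muscle markers to 2.66 to 5.87 and 2.59 to 7.87, and neural and glial markers to 5.2 to 9.98 and 5.92 to 7.51. Of all these markers on the array only Snap25 was above background on no array. The part of cell composition in the HoxC differences was not tested.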

How the data were processed

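RNA abundance was measured on 8 single-colour Agilent mouse arrays. Per the file headers, the scanner was a G2505C, the authors' software was Feature Extraction 10.5.1.1, its protocol was GE1-v5_95_Feb07, and the grid names build mm9. The processed signal, background-subtracted signal, signal error, median signal and local background are deposited intensities, not normalised between arrays, beside 0 or 1 indicators per spot. The deposited log2 table, whose method is not stated, has medians of 6.76 to 6.77 on every array and correlated with the log2 median signal at r = 0.996 to 1.00, so its scale is log2 without background subtraction. In 95% of values it lay within 0.15 of the quantile-normalized log2 median signal, so it had been normalised between arrays.

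Signals were taken to log2 minus the array's 75th percentile, outlier spots left out. A probe entered if well above background on 4 of 8 arrays (28603 of 41174), and a gene was its brightest entering probe, which gave 22345 genes, 13861 with a symbol. limma 3.58.1 in R 4.3.3 (lmFit, eBayes with intensity trend) compared genotypes with no covariates, two-sided, Benjamini-Hochberg over all genes at 5% FDR. RefSeq table symbols (24844 probes) had a newer build than the grid, so no coordinates are given. In simulated data of 22345 genes, limma recovered 7, 43, 45 and 50 of 50 genes changed by 1, 2, 4 and 8 on the log2 scale, with 4 false calls. The number of arrays limits precision.

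The members and lists were chosen with earlier results of these data known. Named genes were all HoxC genes, Bmi1, the 5 genes most like Hoxc9, 5 neighbours a side, and each list's called members or else the 2 of smallest p. Krt82, the paralogues outside this rule, Hoxa7 and the probe without a symbol were named after their values were seen. Alternatives were normexp (offset 50), quantile and median scaling, other filters and probe rules, a common floor, other fits, the slide, each array left out, the deposited log2 table and, chosen after seeing the data, unscaled signals.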

Additional observations from a re-analysis of the deposited data

Results flagged for a closer look

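In 6 of 98 groups of 4 arrays, 1 array stood far from the other 3 (its gap over the group's range was above Dixon's 95% critical value), and chance alone gives about 1 in 20. In Bmi1 null samples Bmi1 was lowest in replicate 1, at -2.92 against -1.23 to -1.04 in the others (scaled log2 signal, here and below). No HoxC probe was among the 6. Among the Hox genes named for comparison, Hoxb7 in WT was highest in replicate 3, at -7.29 against -8.67 to -8.52, and Hoxa7 in WT was lowest in replicate 2, at -6.19 against -5.11 to -4.99. Atp5g2, a neighbour of the HoxC cluster, was lowest in WT replicate 3, at 4.78 against 5.47 to 5.57. Chchd7 in Bmi1 null samples was highest in replicate 3, at 3.75 against 3.59 to 3.61. The skin marker Krt10 in Bmi1 null samples was lowest in replicate 2, at -4.73 against -3.71 to -3.52.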

How the results depend on the processing

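Hoxc9 kept its direction and its call under all 24 alternatives that could test it, with log2 differences of 4.33 to 9.24 and limma adjusted p up to 0.0496 (slide 1 alone). Hoxc5 kept its direction in the same 24 (1.08 to 5.07) and lost its call in 7. The number of HoxC genes called was 2 as reported and 1 with normexp, the common floor, slide 1 alone or the deposited log2 table; without 1 array it was 1 to 2. With the filter on all 8 arrays no HoxC gene could be tested, so 0 were called. Over all genes 11 were called (9 higher, 2 lower): 5 with normexp (4 and 1), 13 under quantile normalization (9 and 4), 7 with the common floor, 22 with array weights, 1 and 19 on slides 1 and 2 alone, and 9 to 14 without 1 array. With the filter on all 8 arrays limma called 0 of 19622 genes (1265 at unadjusted p under 0.05). Chosen after seeing the data, unscaled processed signals gave 167 calls (13 higher, 154 lower) and unscaled median spot signals 185, where the median of all genes was -0.89 and -0.74; normexp moved that median to 0.17. Hoxc13 had 2.93 as reported (limma adjusted p = 0.157 and 0.183 with no filter, per gene and per probe), 1.12 with normexp, 0.78 with the common floor, 0.70 in the deposited log2 table and 2.58 to 3.5 without 1 array, and these other values were not tested. The cause of these changes was not tested. No paired analysis was possible because the labels give no numbers shared between the genotypes. Signal near background limits Hoxc8, Hoxc10, Hoxc12 and Hoxc13.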

Other observations

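The probe whose values were most like those of Hoxc9 has no gene symbol in the reference table. This probe, A_51_P496245, had processed signals of 2.25, 1.51, 2.66 and 1.86 on WT arrays 1 to 4 and 105, 169, 95.9 and 219 on null arrays 1 to 4. It was above background on 4 null arrays and no WT array. After scaling it was at least 26.6-fold above the WT detection limits (limma adjusted p = 1.98e-05 for its difference). Its correlation with Hoxc9 over the 8 arrays was 0.997. The probe entered the test only through its null arrays and was picked by this correlation. Its p-value and its correlation are therefore a description and no independent evidence. Whether it lies in the HoxC cluster was not determined.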
